A study of Mus musculus with 6 samples.

Results

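The lysyl oxidases are the 5 genes Lox, Loxl1, Loxl2, Loxl3 and Loxl4. They were chosen by symbol, by matching the Ensembl identifiers of the count table, without their version, to GENCODE M21 on the mouse genome GRCm38, and they are 5 of the 55335 genes in the table. Earlier results of these data were known when the family was chosen. All 5 members passed the filter on low counts that left 15881 genes for testing. RNA-seq was done on mouse embryonic fibroblasts (MEFs), labelled as a wild-type cell line. One group had crossed a transwell membrane with 3 μm pores in 15 h and was collected below it (Confine), and the other was the parental population (Ctrl). The cells were routinely cultured in DMEM with fetal bovine serum, penicillin and streptomycin. In the paper's assay with 5 μm pores, the upper medium held no serum and the lower medium did. The medium used with the 3 μm pores was not given. All libraries were made from polyadenylated RNA with a dUTP method that keeps the strand.

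The table holds 3 Ctrl and 3 Confine columns, but Confine replicates 1 and 2 carry the same count in all 55335 genes. They were counted as 1 library, named Confine replicate 2 here, which leaves 3 Ctrl and 2 Confine libraries with 22287210 to 32537550 counts each. No source used here says that the libraries came from separate cultures, so the p-values measure only the spread between these libraries, which may be technical. Crossing the pores, time on the membrane, any difference in serum and selection of the cells that crossed cannot be told apart. In bulk RNA, more cells with a transcript and more transcript per cell cannot be told apart either. Of 7 fibroblast markers, 6 were tested and 3 of them rose (Col1a1, Vim and Pdgfra), with a summed level of 7871.3 to 8571.2 CPM (counts scaled by library size and TMM factor) in Ctrl and 12979.7 to 13796.7 CPM in Confine, whereas Thy1 had no more than 2 counts in any library. Most of that sum was Vim and the collagen I chains. Whether the counting left out reads of Thy1 is not known, so no limit on its level is given. Col1a2, Pdgfrb and S100a4 did not pass, with log2 fold changes of 0.24, -0.36 and -0.28. Both Confine libraries lay above all Ctrl libraries for Col1a2 and below them for Pdgfrb and S100a4. With scaling by library size only, Pdgfrb passed as lower (-0.57, adjusted p = 0.0322 in edgeR's quasi-likelihood test). None of the 5 epithelial or 4 endothelial markers had enough counts to be tested, with summed levels of at most 0.675 and 0.718 CPM, and Epcam and Krt18 were at 0. Of the 5 leukocyte markers, Cd68 rose and Lyz2 fell, while Ptprc had at most 2 counts and Adgre1 had 0, and the sum went from 6.89 to 7.71 CPM in Ctrl to 17.2 to 24.1 CPM in Confine. Of the 5 muscle markers, Des rose, Cnn1 did not pass the test and Myod1 was at 0, with sums of 13.9 to 26.0 CPM in Ctrl and 18.4 to 25.0 CPM in Confine. The part of these markers in the results on the lysyl oxidases was not tested.

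Lysyl oxidases are secreted copper enzymes that oxidise lysine and hydroxylysine side chains of collagen and elastin to reactive aldehydes, which then condense into the cross-links that make a matrix stiff and insoluble. Lox and Loxl1 are made as proenzymes with a propeptide that Bmp1-type proteases remove, whereas Loxl2, Loxl3 and Loxl4 carry scavenger receptor cysteine-rich domains ahead of the catalytic domain. Fibroblasts are a major source of these enzymes, and Lox and Loxl2 are also known as genes that low oxygen induces.

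What the members share is the catalytic domain, and its copper-binding histidines lie in a short stretch that all 5 transcripts encode. The coding sequence of this stretch is shown because it is the part of the enzyme that defines the family and lets the members be compared base by base. It was found by translating the GENCODE M21 transcripts, it is 33 bases long, and it crosses an exon junction in all 5 genes. Lower case marks bases that all 5 members share and capitals mark the 13 positions at which they do not.

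Loxl1: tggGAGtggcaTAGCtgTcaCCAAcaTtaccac
Loxl2: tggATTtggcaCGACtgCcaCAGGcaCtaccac
Loxl3: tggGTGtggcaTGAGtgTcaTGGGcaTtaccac
Loxl4: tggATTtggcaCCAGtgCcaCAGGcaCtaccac

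On GRCm38 the Loxl1 stretch starts and ends within chr9:58293720-58294381 on the minus strand, in exons 3 and 4 of 7. The Loxl2 stretch lies in chr14:69682316-69689037 on the plus strand, in exons 10 and 11 of 14, and the Loxl3 stretch in chr6:83049995-83050125 on the plus strand, also in exons 10 and 11 of 14. The Loxl4 stretch lies in chr19:42598807-42599899 on the minus strand, in exons 11 and 12 of 15. Each of these ranges includes the intron between the exons named. Lox shared 32 of the 33 bases with Loxl1, Loxl2 shared 31 with Loxl4, and the other pairs shared 21 to 25. The coding sequences have 411 codons in Lox, 607 in Loxl1, 776 in Loxl2, 754 in Loxl3 and 758 in Loxl4. The longest identical run between transcripts of any pair of members was 32 bases, between Lox and Loxl1, and the runs of the other pairs had 11 to 28 bases.

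In Confine cells Lox and Loxl2 rose, and Loxl1, Loxl3 and Loxl4 did not pass the test. Lox increased 3.38-fold from an already high level and Loxl2 4.60-fold from a level near the low end of the tested genes. That is 2 of 5 members up and 0 down at an adjusted p under 0.05 in edgeR's quasi-likelihood test, where 12.8% of the 15881 tested genes rose and 10.2% fell. With a further cutoff of 1.5 on the absolute log2 fold change, the same 2 members remained, beside 4.89% of all genes up and 3.11% down. In 3 of 5 members, Lox, Loxl2 and Loxl4, both Confine libraries lay above all Ctrl libraries, which held for 25.9% of the tested genes, and in no member did they lie below, which held for 23.6%.

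Lox, the founding member (ENSMUSG00000024529.14, chr18:52516067-52529867, minus strand), had 342.1, 360.1 and 284.7 CPM in Ctrl replicates 1, 2 and 3 and 1009.4 and 1217.4 CPM in Confine replicates 2 and 3. Every Confine library was far above every Ctrl library, and the gap between groups exceeded the spread within either. The mean went from 329.0 ± 39.4 CPM (SD, 3 libraries) to 1113.4 ± 147.1 CPM (SD, 2 libraries), a log2 fold change of 1.76 (SE 0.18, 95% interval 1.38 to 2.14, adjusted p = 1.24e-06 in edgeR's quasi-likelihood test). These levels rest on 6694 to 30662 counts per library. Among the tested genes with an exon length, Lox moved from percentile 94.4 to percentile 98.2 of level per length.

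Loxl2, which acts on collagen IV of basement membranes among other substrates (ENSMUSG00000034205.16, chr14:69609068-69695834, plus strand), was counted 33, 23 and 24 times in Ctrl, compared with 123 and 131 times in Confine. Its normalized levels came to 1.14, 0.869 and 1.02 CPM without confinement, and to 4.16 and 5.2 CPM with it. The groups were again separate, and all levels were above the 0.101 to 0.128 CPM that a floor of 3 counts stands for. The mean went from 1.01 ± 0.136 CPM (SD, 3 libraries) to 4.68 ± 0.739 CPM (SD, 2 libraries), a log2 fold change of 2.20 (SE 0.33, 95% interval 1.52 to 2.89, adjusted p = 5.97e-05 in edgeR's quasi-likelihood test). Its standard error is the largest of the family, and its level per length stayed low, at percentile 7.67 in Ctrl and 26.9 in Confine.

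Loxl1, which is needed for elastic fibre upkeep (ENSMUSG00000032334.10, chr9:58287738-58313186, minus strand), had 99.7, 96.4 and 75.6 CPM in Ctrl and 93.3 and 90.3 CPM in Confine. The Confine values fell inside the Ctrl range. Its log2 fold change was 0.02 (SE 0.19, 95% interval -0.37 to 0.41, adjusted p = 0.956 in edgeR's quasi-likelihood test), so a change of more than 1.33-fold up or below 0.774-fold lay outside the interval. When only the library size was used for scaling, its sign turned, to -0.19, still short of the threshold.

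Loxl3, a member of the subgroup with scavenger receptor domains (ENSMUSG00000000693.10, chr6:83034173-83052562, plus strand), had 100.6, 62.3 and 91.5 CPM in Ctrl and 62.4 and 72.5 CPM in Confine. Ctrl replicate 2 lay below both Confine libraries and the other 2 Ctrl libraries lay above them. The log2 fold change was -0.33 (SE 0.21, 95% interval -0.77 to 0.11, adjusted p = 0.289 in edgeR's quasi-likelihood test). The call depended on the fit: without Ctrl replicate 2 the value was -0.51 with an adjusted p of 0.0266 in edgeR's test, and with a replicate block that takes the repeated Confine library as number 1 it was -0.51 with an adjusted p of 0.0182.

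Loxl4, the closest in the copper stretch to Loxl2 (ENSMUSG00000025185.14, chr19:42593982-42612813, minus strand), had 29.9, 22.8 and 24.9 CPM in Ctrl and 30.1 and 35.8 CPM in Confine. Both Confine libraries were higher, but Confine replicate 2 barely exceeded Ctrl replicate 1. The log2 fold change was 0.35 (SE 0.19, 95% interval -0.05 to 0.75, adjusted p = 0.212 in edgeR's quasi-likelihood test), so any rise above 1.68-fold lay outside the interval.

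**Figure D1:**
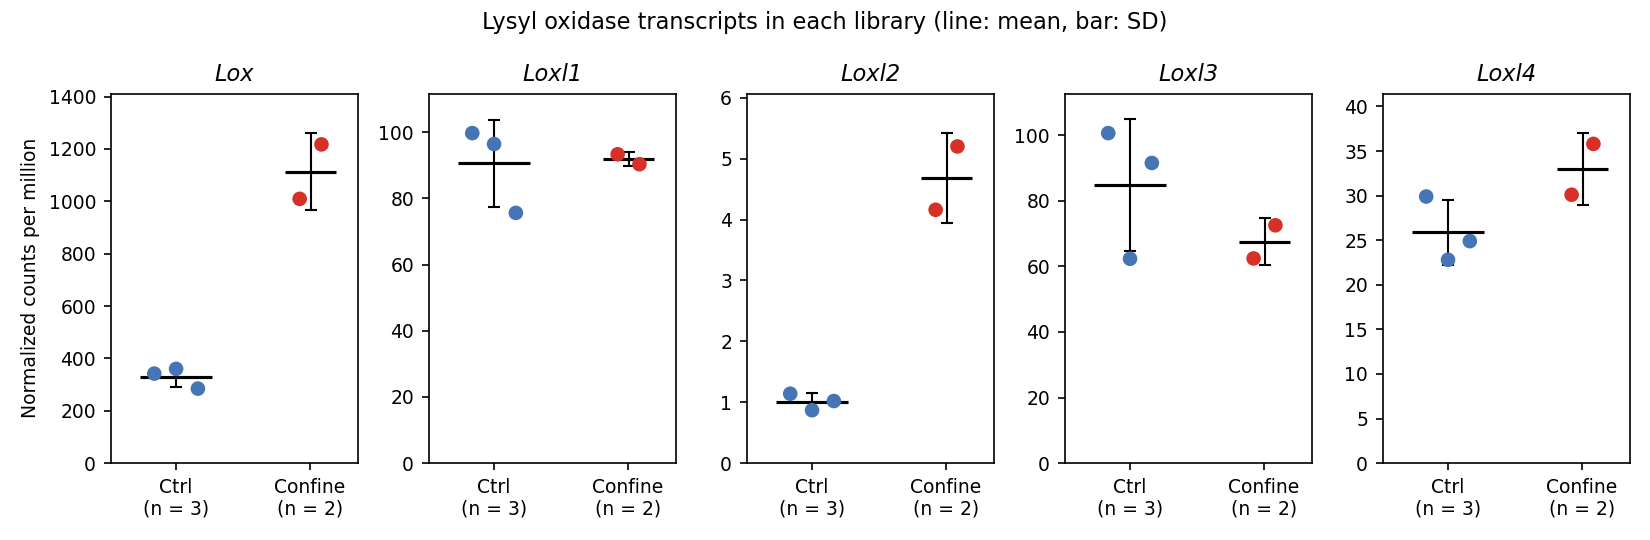
Level of each lysyl oxidase in CPM, on linear axes that start at 0, with 1 point per library, a line at the group mean and bars for the SD (3 Ctrl and 2 Confine libraries). Lox (284.7 to 360.1 in Ctrl, 1009.4 and 1217.4 in Confine) and Loxl2 (0.869 to 1.14 in Ctrl, 4.16 and 5.2 in Confine) separate by group, Loxl1 and Loxl3 overlap, and the lowest Confine library of Loxl4 (30.1) is just above its highest Ctrl library (29.9).

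**Figure D2:**
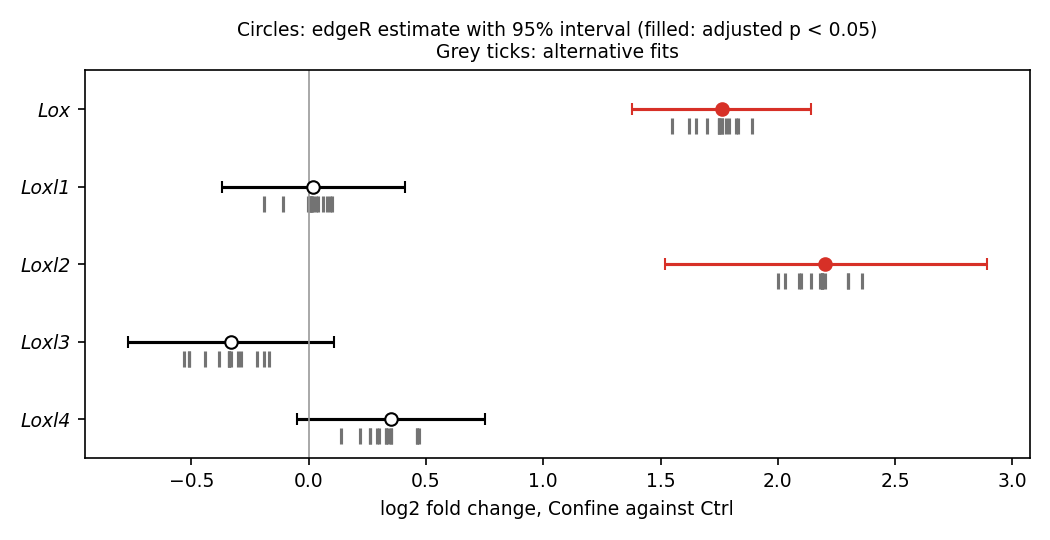
The log2 fold change of each lysyl oxidase, Confine against Ctrl, as circles with the 95% interval from edgeR's standard error, filled where the adjusted p was under 0.05, and grey ticks for the values under the other settings tried. The intervals of Lox (1.38 to 2.14) and Loxl2 (1.52 to 2.89) lie above 0 and overlap each other, whereas the intervals of Loxl1, Loxl3 and Loxl4 include 0 and the ticks of Loxl1 lie on both sides of it.

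Compared per kilobase of merged exon (RPKM), so that levels can be set against each other between genes, the order in Ctrl was Lox at 68.8 ± 8.25, Loxl1 at 27.5 ± 3.97, Loxl3 at 18.4 ± 4.35, Loxl4 at 6.14 ± 0.865 and Loxl2 at 0.187 ± 0.0251 RPKM (SD, 3 libraries). The nearest neighbours were Loxl1 and Loxl3, whose lowest and highest Ctrl libraries were 22.9 and 21.8 RPKM, a gap smaller than either SD. All other neighbours in that order were further apart than their spread. In Confine the order was the same, with Lox at 233.0 ± 30.8, Loxl1 at 27.8 ± 0.633, Loxl3 at 14.7 ± 1.55, Loxl4 at 7.83 ± 0.953 and Loxl2 at 0.866 ± 0.137 RPKM (SD, 2 libraries), and no neighbours overlapped. Loxl2 remained the lowest member in all libraries in spite of its rise.

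The summed level of the family was 131.0, 123.7 and 108.5 RPKM in Ctrl and 261.0 and 307.4 RPKM in Confine, a ratio of the means of 2.35. Both Confine sums were above all Ctrl sums. An exact permutation test (two-sided) gave p = 0.1, the smallest that 3 against 2 libraries allow, so neither this sum nor the shares that follow could reach 0.05. Lox made up 54.7, 60.9 and 54.9% of the summed level in Ctrl and 80.9 and 82.9% in Confine, a rise of 25.1 percentage points (exact permutation p = 0.1, adjusted over the 5 shares 0.125). Loxl1 made up 22.6% ± 1.32 in Ctrl and 9.88% ± 1.36 in Confine (SD), and Loxl3 15.3% ± 3.88 and 5.16% ± 0.0493, with exact permutation p of 0.1 and 0.2 (adjusted 0.125 and 0.2). Loxl4 made up 5.08% ± 0.611 and 2.75% ± 0.0176, and Loxl2 stayed under 1% in all libraries, with 0.313% as its highest share. Since shares add up to the whole, those of Loxl1, Loxl3 and Loxl4 are lower here with Lox higher, and say nothing of a fall in their own level.

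**Figure D3:**
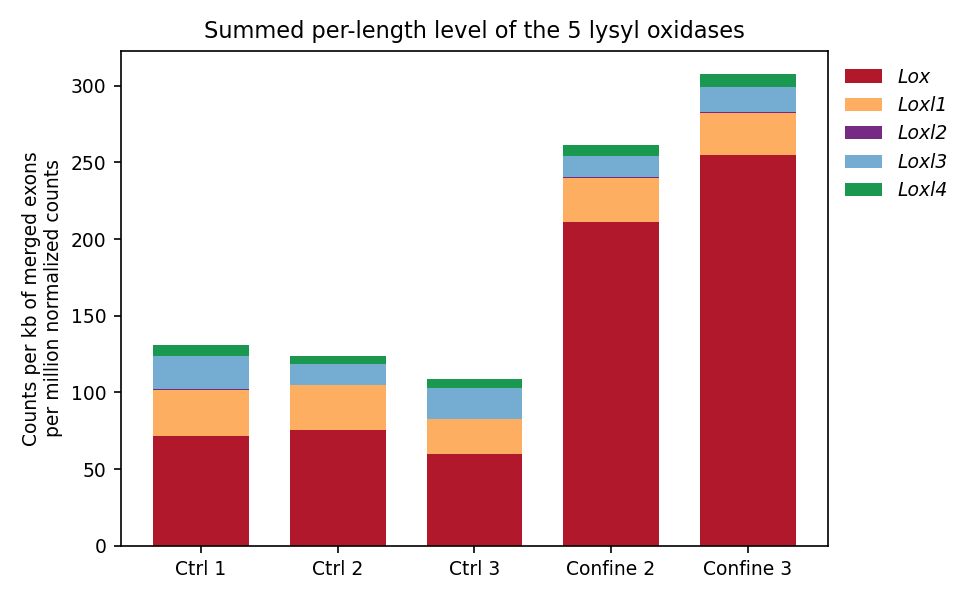
Stacked bars of the level of the 5 lysyl oxidases in each library, in RPKM, so that the height is their sum. The bars reach 108.5 to 131.0 in Ctrl and 261.0 and 307.4 in Confine, most of the added height is Lox, and Loxl2 is at most a thin line.

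Some members overlap genes on the other strand. Libraries keep the strand, but whether the counting used it was not given in the sources used here, so reads in an overlap may have been assigned to neither or to the other gene. The exons of Lox share 30 bases, 0.628% of its merged exons, with the antisense transcript AC161119.1 (chr18:52528661-52577325, plus strand). AC161119.1 had 21.3, 29.7 and 25.2 CPM in Ctrl and 149.1 and 172.0 CPM in Confine, so it was separate by group, as was Lox. Its log2 fold change was 2.66 (SE 0.19, adjusted p = 1.47e-08 in edgeR's quasi-likelihood test). Its counts equalled 6.23, 8.26 and 8.86% of those of Lox in Ctrl and 14.8 and 14.1% in Confine. The part of this overlap in the values of Lox and AC161119.1 was not tested.

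Loxl3 shares 535 bases, 11.6% of its merged exons, with Htra2, the gene of a mitochondrial serine protease (chr6:83051266-83055273, minus strand). Htra2 had 100.6, 74.6 and 89.5 CPM in Ctrl and 44.4 and 49.2 CPM in Confine, lower in both Confine libraries. Its log2 fold change was -0.92 (SE 0.19, adjusted p = 0.00179 in edgeR's quasi-likelihood test), and without Confine replicate 2 it was -0.84 with an adjusted p of 0.0533 in edgeR's test. There were 1.0, 0.835 and 1.02 Loxl3 counts per Htra2 count in Ctrl and 1.41 and 1.47 in Confine. The part of this overlap in the Loxl3 values was not tested. Loxl2 shares 301 bases (5.57%) with Gm27177, which had at most 4 counts, and 7 bases with Mir6950, which had at most 5, while Loxl1 and Loxl4 overlap no other gene's exons.

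**Figure D4:**
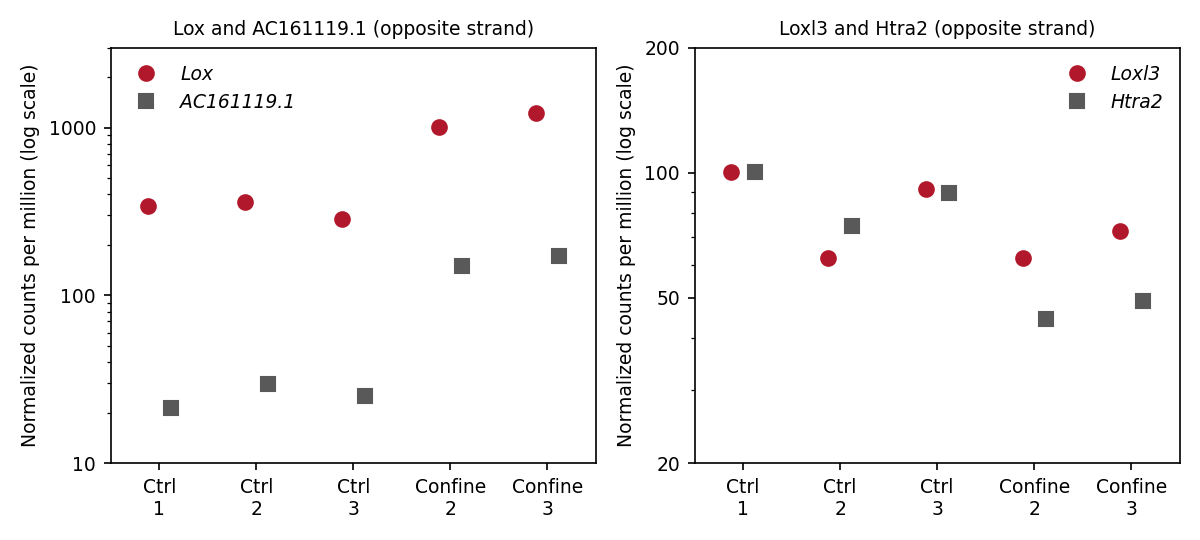
Level in CPM by library, on log axes, for Lox with AC161119.1 (left) and Loxl3 with Htra2 (right). Lox and AC161119.1 are both higher in Confine, whereas Htra2 falls from 74.6 to 100.6 in Ctrl to 44.4 and 49.2 in Confine and Loxl3 overlaps between groups.

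The genes around the lysyl oxidases were counted in 8 lists with 72 genes, of which 61 were tested, 33 rose and 7 fell by edgeR's quasi-likelihood test, beside the 12.8% and 10.2% of all tested genes given above. Scaling by library size only, which moves the median log2 fold change of all genes by -0.21, left 25 up and 10 down, and Col1a1, Plod3 and Pxdn no longer passed. The median log2 fold change of all tested genes was 0.0 with TMM. The lists were chosen with earlier results of these data known, so their counts are a description.

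Of the substrates, namely fibrillar collagens, the main collagen IV chains and elastin, 11 of 14 were tested, 7 rose and 1 fell, with a median log2 fold change of 0.66. With library size alone 5 rose and 1 fell, and without Ctrl replicate 3 5 rose and 0 fell. Col5a1, counted as up at 0.6, missed the threshold in both of these fits. It was at 0.39 and 0.42, with adjusted p of 0.167 and 0.197 in edgeR, in that order. Col3a1, the collagen III chain that accompanies collagen I, had 259.2, 270.9 and 219.4 CPM in Ctrl and 1220.5 and 1085.6 CPM in Confine (log2 fold change 2.21, adjusted p = 5.78e-08 in edgeR). Col5a3, a chain of the collagen V that seeds fibrils, had 1.8, 2.91 and 2.68 CPM in Ctrl and 44.3 and 39.2 CPM in Confine (log2 fold change 4.09, adjusted p = 4.91e-10 in edgeR). Both were separate by a wide margin, and Col27a1 (1.45) and the basement membrane chain Col4a2 (1.02) also rose. Of the collagen I chains, Col1a1 rose at 0.66 (95% interval 0.29 to 1.02) and Col1a2 did not pass at 0.24 (95% interval -0.13 to 0.61, adjusted p = 0.359 in edgeR), and the difference between them was not tested. Col1a1 missed the threshold without Ctrl replicate 3, at 0.58 with an adjusted p of 0.08 in edgeR. Col11a1 was the one that fell, at -0.79, and it no longer passed when any library but Ctrl replicate 2 was left out, with adjusted p of 0.139, 0.0961, 0.367 and 0.051 in edgeR without Ctrl replicates 1 and 3 and Confine replicates 2 and 3. Eln, the gene of elastin, was listed at 0 counts in all 5 libraries. Whether the counting left such genes out cannot be read from the table, so no limit on its level is given.

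Of the elastic fibre scaffold and matrix proteins that hold lysyl oxidases, 13 of 14 were tested, 5 rose and 3 fell (median 0.33), but 2 rose and 5 fell with library size alone. The count also depended on single libraries, with 3 up without Ctrl replicate 1, 2 up without Confine replicate 2, and 3 up and 1 down without Confine replicate 3. Fn1, the fibronectin on which Lox is held, had 772.1, 877.3 and 654.7 CPM in Ctrl and 1531.2 and 1627.1 CPM in Confine (log2 fold change 1.04, adjusted p = 0.000309 in edgeR), and Fbn1, the main microfibril protein, rose at 0.96. Fmod, the collagen-binding proteoglycan fibromodulin, had 1060.3, 622.9 and 812.9 CPM in Ctrl and 342.5 and 296.4 CPM in Confine (log2 fold change -1.38, adjusted p = 0.000133 in edgeR). These 3 kept their calls when any 1 library was left out. The other risers did not: Fbn2, a second fibrillin, was at 1.05 on 31 to 97 counts per library and passed in 1 of the 5 fits that leave out a library, Mfap5, a microfibril protein, was at 0.63 and passed in 3 of 5, and Ltbp2, a fibrillin-binding protein, was at 0.59 and passed in 2 of 5. Fbln5, which brings Loxl1 to elastic fibres, fell at -0.78, but without Ctrl replicate 1, Confine replicate 2 or Confine replicate 3 its adjusted p was 0.0899, 0.0672 and 0.127 in edgeR. Postn, the matricellular protein periostin, fell at -0.96, with an adjusted p of 0.135 in edgeR without Confine replicate 3.

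Processing, copper supply and lysine hydroxylation come before or beside the reaction itself. Of the procollagen and proenzyme proteases and their enhancers, 6 of 8 were tested, 1 rose and 1 fell (median 0.02). Bmp1, which activates pro-Lox, had 99.2, 117.6 and 103.9 CPM in Ctrl and 196.6 and 204.8 CPM in Confine (log2 fold change 0.91, adjusted p = 0.000761 in edgeR), and Pcolce2, an enhancer of Bmp1, fell at -0.96, with an adjusted p of 0.133 in edgeR without Confine replicate 2. Of the copper genes, 9 of 9 were tested, 3 rose and 1 fell (median 0.13). The copper pumps of the secretory pathway were both among those that rose. Atp7a, which loads copper into lysyl oxidases, had 7.19, 8.58 and 7.02 CPM in Ctrl and 15.6 and 19.3 CPM in Confine (log2 fold change 1.20, adjusted p = 0.000376 in edgeR). Atp7b, its relative best known from liver, had 1.24, 0.831 and 2.08 CPM in Ctrl and 80.1 and 67.5 CPM in Confine (log2 fold change 5.75, adjusted p = 7.74e-11 in edgeR). The metalloreductases went both ways, with Steap4 at 1.88 and Steap3 at -1.16, and the importer Slc31a1 was at 0.13 and did not pass.

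Of the lysyl hydroxylases and their chaperone, all 4 were tested, 3 rose and 0 fell (median 1.44). Plod1, which hydroxylates helical lysines of collagen, had 80.3, 82.1 and 77.9 CPM in Ctrl and 376.5 and 389.0 CPM in Confine (log2 fold change 2.26, adjusted p = 2.76e-08 in edgeR). Plod2, which hydroxylates the telopeptide lysines that lysyl oxidases then oxidise, had 6.6, 7.41 and 4.47 CPM in Ctrl and 66.5 and 94.3 CPM in Confine (log2 fold change 3.70, adjusted p = 1.77e-09 in edgeR). Both were thus separate by more than the spread within either group. Plod3 rose at 0.63, but had an adjusted p of 0.0997, 0.113 and 0.128 in edgeR without Ctrl replicate 3, Confine replicate 2 or Confine replicate 3, and the chaperone Fkbp10 was at -0.06. Of the other cross-linking enzymes, 4 of 7 were tested, 1 rose and 1 fell (median -0.1). Aoc3, another copper amine oxidase, fell at -1.53, and Pxdn, the peroxidasin of collagen IV, rose at 0.61 but had an adjusted p of 0.163, 0.227 and 0.127 in edgeR without Ctrl replicate 3, Confine replicate 2 or Confine replicate 3.

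Reporter genes of the pathways known to act on Lox moved as well. Of 9 hypoxia reporters, 8 were tested and all 8 rose, with a median log2 fold change of 3.36 and a range from 2.25 (Adm) to 5.59 (Car9). Their summed level was 216.4 to 230.4 CPM in Ctrl and 1963.6 to 2308.5 CPM in Confine. Car9, a carbonic anhydrase of cells short of oxygen, had 1.24, 1.97 and 1.02 CPM in Ctrl and 70.5 and 65.8 CPM in Confine. Ankrd37 (5.11), Ndrg1 (4.21) and Bnip3 (3.46) followed it in size. Of 7 TGF-beta targets, 6 were tested, 5 rose and 0 fell (median 1.10), among them Ccn2 (2.24), Smad7 (1.77) and Skil (1.22). Their summed level did not rise, with 2057.6 to 3194.7 CPM in Ctrl and 1900.0 to 2142.4 CPM in Confine, and most of it was Acta2, which was at -0.59 (adjusted p = 0.0557 in edgeR). Acta2 did pass as lower with DESeq2 (-0.6, adjusted p = 0.0368), with library size alone (-0.79, adjusted p = 0.00799 in edgeR) and in 2 of the 5 fits that leave out a library, so that 0 or 1 of the TGF-beta targets fell depending on the fit. Without Confine replicate 2, 3 of them rose. Tgfbi rose at 0.97, with an adjusted p of 0.0823 in edgeR without Confine replicate 2. Tagln, a further smooth muscle gene, had 1 to 8 counts per library, too few to be tested. Whether the counting left out part of the Tagln reads is not known. The part of either pathway in the rise of Lox and Loxl2 was not tested.

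**Figure D5:**
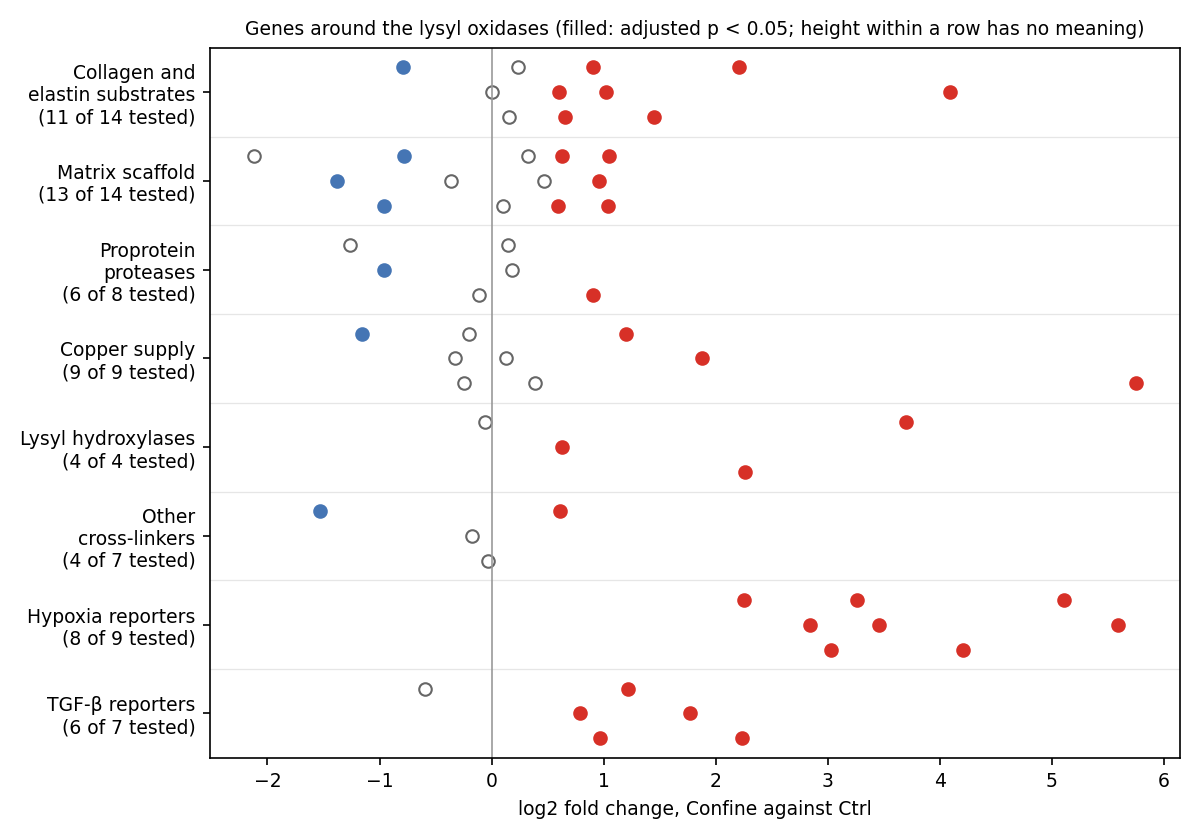
The log2 fold change of each tested gene of the 8 lists, Confine against Ctrl, 1 row per list, with filled points for an adjusted p under 0.05 by edgeR. All 8 tested hypoxia reporters lie at 2.25 or higher, 3 of 4 lysyl hydroxylase genes are filled to the right of 0, and the scaffold proteins spread to both sides.

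The genes whose pattern over the 5 libraries was most like that of each member were found by the root mean square difference of log2 CPM, centred on each gene, among 9731 protein-coding genes. Nearest to Lox were Klf10, at a distance of 0.0526, and Atp2b4, at 0.0682. Loxl2 had Gapdh at 0.0834 and Pfkp at 0.0860. For Loxl1 they were Dync1h1 at 0.0299 and Bms1 at 0.0324, for Loxl3 Aldh18a1 at 0.0402 and Man2b2 at 0.0441, and for Loxl4 Csrp1 at 0.0522 and Actn1 at 0.0560. The neighbours of Lox and Loxl2 carried log2 fold changes of 1.66, 1.65, 2.14 and 2.23, in the order given, close to those of the member itself, and over 5 libraries such a distance mostly reflects the difference between the groups. These distances are a description and carry no test.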

How the data were processed

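The deposited table gives raw read counts, not normalized, in 3 Ctrl and 3 Confine columns. Per the submitters' processing notes, the tools were Trim Galore 0.6.10, HISAT2 2.1.0, SAMtools 1.5 and featureCounts, with the build mm10. The annotation and the strand setting of the counting were not given in the sources used here. Of the 55335 gene identifiers, 54587 matched GENCODE M21 with their version and 55154 without it. Confine replicates 1 and 2 were identical and were counted once, so that 3 libraries were tested against 2 in place of 3 against 3.

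Genes kept by filterByExpr (15881) were TMM-scaled. The main test was edgeR's quasi-likelihood F test (edgeR 4.0.16, R 4.3.3) with no block for replicate number. It had 3 residual degrees of freedom and, at the median, 14.8 from the prior. P-values were adjusted by the Benjamini-Hochberg method over all tested genes, and a gene passed at an adjusted p under 0.05. Standard errors were the absolute log2 fold change divided by the square root of F, and 95% intervals used edgeR's total degrees of freedom. CPM are TMM-scaled, and RPKM divide them by the length of the merged exons. Exact permutation tests used scipy 1.17.1. On counts simulated for this comparison with 15375 genes, 62.5% of 96 genes with a log2 fold change of 1 and 99% of 104 genes with 2 were recovered, and 7.39% of the calls were false. No other genes were changed in the simulation, whereas 23.0% of the tested genes passed in the real data. The simulated rates therefore need not hold for the real comparison.

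The members and lists were chosen with earlier results of these data known. The genes named were the members, up to 4 genes per direction and list with the largest absolute log2 fold change among those that passed with a mean of at least 20 counts, the 2 genes nearest to each member among those above 2 in average log2 CPM, plus genes whose exons overlap a member. Other list genes were named after their values were seen. The alternatives were DESeq2 1.42.0, limma-voom (limma 3.58.1), other scalings and filters, the identical columns as 2 samples, a replicate block and leaving out each library. The floor of 3 counts covers counting error only, because no molecular identifiers were used and reads may be copies of 1 molecule. Columns not used numbered 0.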

Additional observations from a re-analysis of the deposited data

How the results depend on the processing

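Lox and Loxl2 passed the test in every fit tried, with log2 fold changes of 1.55 to 1.89 and 2.00 to 2.36. Loxl1 changed sign to -0.19 with library size alone. Leaving out each library gave 1.62 to 1.89 for Lox, -0.11 to 0.089 for Loxl1, 2.03 to 2.36 for Loxl2, -0.51 to -0.19 for Loxl3 and 0.22 to 0.47 for Loxl4, with 2 members up and 0 to 1 down in every such fit. The share of Lox then rose by 24.0 to 27.1 percentage points. In the lists 25 to 31 genes rose and 4 to 8 fell. With the cutoff of 1.5 on the absolute log2 fold change, 16 list genes rose and 1 fell. Fits without a Confine library leave 1, assumed to vary like Ctrl. The labels do not say that equal replicate numbers were paired. With the repeated library as number 2, the log2 CPM difference of replicate 3 minus 2 in Ctrl and that in Confine correlated across tested genes at -0.053. As number 1, the Ctrl difference was replicate 3 minus 1 and the correlation was 0.052. Among genes above 2 in average log2 CPM, the correlations were -0.108 and 0.091, in the same order. With the replicate block and number 2, the log2 fold changes were 1.79, 0.10, 2.30, -0.17 and 0.46 for Lox, Loxl1, Loxl2, Loxl3 and Loxl4. As number 1, the block gave 1.83, 0.08, 2.09, -0.51 and 0.26, and Loxl3 fell (adjusted p = 0.0182 in edgeR), so that 1 member was down. With number 2, the list genes Col5a1, Fbn2, Ltbp2, Mfap5, Col11a1 and Fbln5 no longer passed, which left 2 scaffold genes up, and Col11a1 also did not with at least 10 counts required in every library. The block left 1 residual degree of freedom. The cause of these changes was not tested. At 23 to 131 counts per library, Loxl2 has the least precise value of the family.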
